A study of Mus musculus with 8 samples.

Results

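Guidance genes were compared between mammary tumours of obese and lean mice. They are the Eph receptors with their ephrin ligands, and the semaphorins with their plexin and neuropilin receptors. Members were chosen by symbol, with GENCODE M21 names for the Ensembl IDs of the count table, as every gene named Epha, Ephb, Efna, Efnb, Plxn, Nrp1 or Nrp2, or Sema of classes 3 to 7. This gave 53 of the 50143 listed genes, namely 14 Eph receptors, 8 ephrins, 20 semaphorins, 9 plexins and 2 neuropilins.

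Py230, a cell line of mouse breast adenocarcinoma, had been injected into mammary gland 4 of female C57BL/6 mice, and RNA was sequenced from 8 of the resulting tumours. The 4 obese tumours came from mice on a high-fat diet (5.1 kcal/g, with fat giving 60% of the calories), and the 4 lean tumours from mice on a regular diet (3.6 kcal/g, 10%). Mice of both groups had been ovariectomized at an age of 6 weeks, began their diet 2 weeks later and received the tumour cells after 6 weeks on it, by which time the high-fat group had gained 35% in weight on average. Tumours were resected on day 56. All tumours stem from 1 cell line, the RNA is that of the whole tumour with its host cells, and the labels do not say whether each tumour came from a mouse of its own. The comparison asks which tumour genes differ between obese and lean hosts.

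Eph receptors are receptor tyrosine kinases that bind ephrins held on the surface of a neighbouring cell, so that contact between cells signals in both directions. EphA receptors bind mainly the lipid-anchored A ephrins and EphB receptors mainly the transmembrane B ephrins. Semaphorins are ligands, secreted in class 3 and attached to the membrane in classes 4 to 7. Plexins are their signalling receptors, and neuropilins are co-receptors that bind secreted semaphorins and forms of vascular endothelial growth factor. In the mammary gland and its tumours these families are known for cell sorting, branching, vessel growth and cell migration.

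Levels are counts per 1 M counts after TMM scaling (CPM), listed for replicates 1 to 4 of each group, obese first. Levels of different genes are set beside each other only as CPM per kb of exon. Changes are log2 values, obese minus lean, ± standard error (SE), and the test is the quasi-likelihood F test of edgeR. An adjusted p under 0.05 over all tested genes is called a rise or a fall.

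Libraries held 25.7 to 66.7 M counts. Obese replicate 3 stood apart from its group. On the first principal component (88.6% of the variance of the 1000 most variable genes) it lay at 12.9, the other obese tumours at −136 to −96.5 and the lean tumours at 70.2 to 93.7. The summed level of 15 luminal mammary epithelium markers was 69.7, 276, 1052 and 251 CPM in the obese and 3219, 1808, 2880 and 2943 CPM in the lean tumours, so that obese replicate 3 held 38.8% of the lean mean. In obese replicates 1, 2 and 4 most of this sum was Krt8 (58.4, 267 and 222 CPM). Of the 15 markers, 5 fell and 0 rose, and 15 fell without obese replicate 3. The summed basal markers reached 96.9 to 173 CPM in obese and 470 to 4791 CPM in lean tumours, the highest in lean replicate 2 (10 of 11 fell). The mesenchymal list summed to 5498 to 12540 against 732 to 1226 CPM (9 of 13 rose, 2 fell), and Vim made up most of the obese sums (6408 ± 2467 against 529 ± 150 CPM). Over all tested genes 30.9% rose and 28.4% fell, or 31.1% and 33.6% without obese replicate 3. A gene of the tumour cells that changes level and a cell type that changes in number cannot be told apart in RNA of whole tumours. Fewer cells of a type and less RNA per cell cannot be told apart either.

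Of the 53 guidance genes, 48 were measured well enough to be tested. In obese tumours 11 rose, 20 fell and 17 did not pass. This is 64.6% called, beside 59.2% of all 14887 tested genes. Rises made up 11 of 48 members, beside 30.9% of all genes, and falls 20 of 48, beside 28.4%. The median change was −1.65 over the tested guidance genes and −0.04 over all tested genes. Among the members 6 rose and 19 fell at least 2-fold (12.5% and 39.6%), beside 17.2% and 21.3% of all genes. The 4 obese values lay all above the 4 lean values for 11 members and all below for 20, beside 28.9% and 28.1% of all tested genes, or 57% in both directions. The 11 are the genes that rose, but the 20 are not the same genes as the 20 that fell. Epha1, Epha7, Efna5 and Sema4f lay all below without a call, while Sema4g, Sema6c, Plxna2 and Plxnc1 fell with overlapping groups. Without obese replicate 3, 12 of 50 tested members rose and 24 fell (all genes: 31.1% and 33.6%, or 64.8% together), with a median of −1.58. Without lean replicate 2 the count of rises was 13 and that of falls 15 (all genes: 31.7% and 27.4%, or 59.1% together), and the median was −1.01. All 11 rises were called again in both of these subsets, and of the 20 falls 18 were called again in the first and 14 in the second. Offsets for GC content and exon length moved the median of all genes to 0.32 and enlarged the small rises, to 1.26 for Epha2, 1.54 for Efna1, 1.17 for Sema4b, 1.13 for Sema4c and 1.50 for Sema7a.

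**Figure D1:**
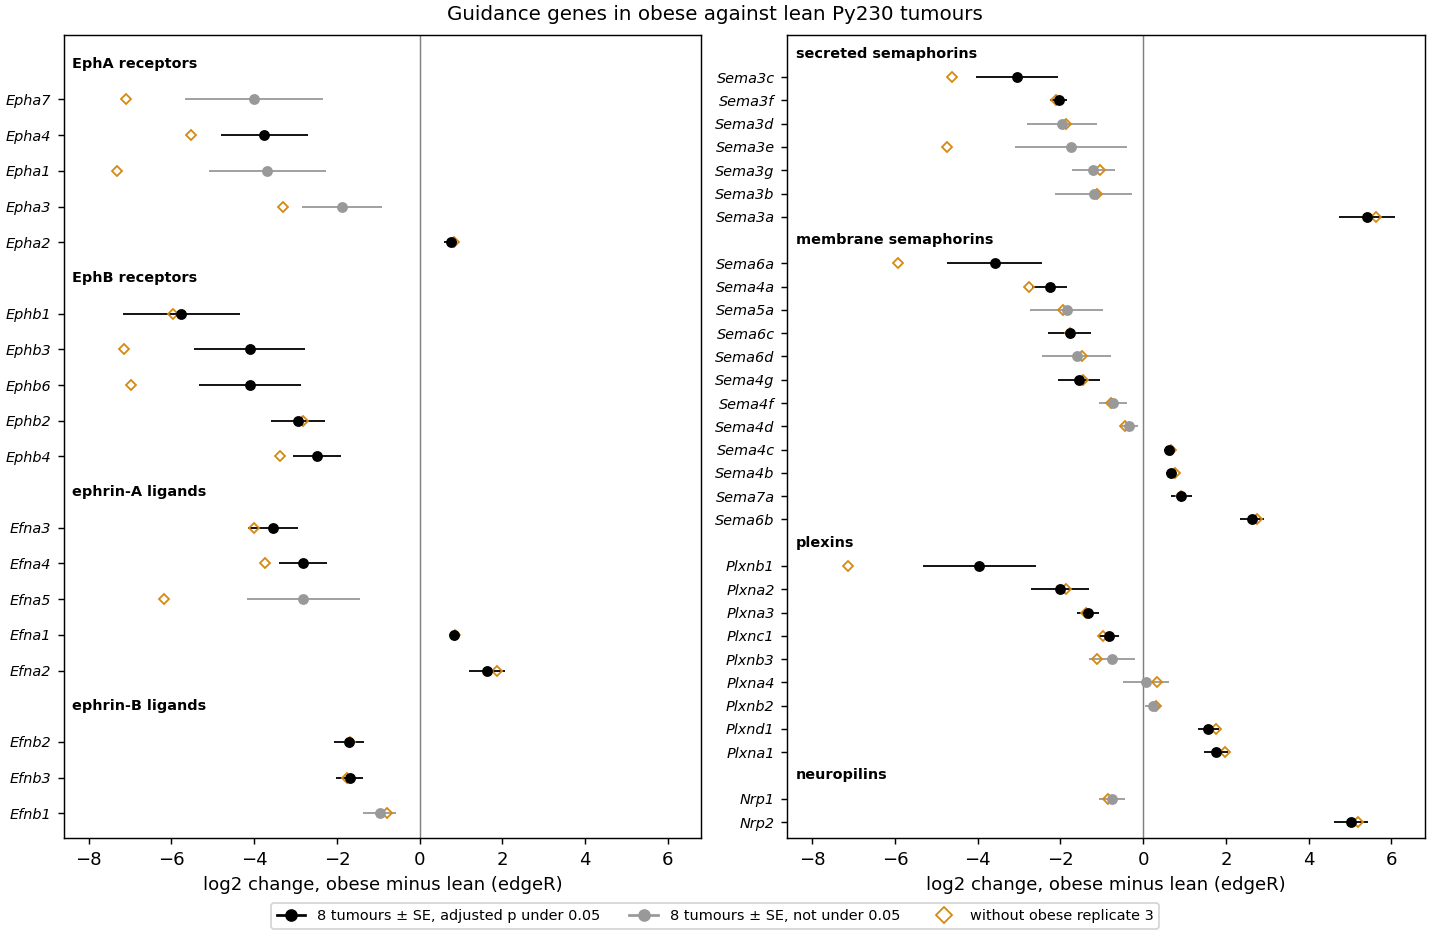
Log2 change, obese minus lean, of the 48 tested guidance genes by family (x axis, edgeR estimate; circles with bars, estimate ± SE over 8 tumours, black where the adjusted p is under 0.05; open diamonds, without obese replicate 3). Nrp2 (5.02) and Sema3a (5.40) lie far to the right of every other member, and all 5 EphB receptors lie left of 0.

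The EphB receptors, which sort cells at tissue borders, fell in 5 of 5 cases, with a median change of −4.10 (−5.96 without obese replicate 3, where 5 of 5 also fell; 4 of 5 fell without lean replicate 2). Their summed level was 3.19, 4.46, 20.4 and 3.03 CPM per kb in the obese and 60.1, 62.8, 63.3 and 61.8 CPM per kb in the lean tumours. Lean tumours were nearly alike, and obese replicate 3 lay between the other obese tumours and the lean group.

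Ephb4, the receptor of ephrin-B2 in veins and the most abundant EphB receptor per kb here, stood at 14.1, 19.8, 70.4 and 12.3 CPM in obese and 170, 121, 179 and 179 CPM in lean tumours. The groups did not overlap, and the gene (ENSMUSG00000029710, GRCm38 chromosome 5, 137350109 to 137378669) fell by a log2 change of −2.47 ± 0.58 (edgeR adjusted p = 0.00869). Its obese replicate 3 reached 43.4% of the lean mean, and without that tumour the change was −3.38.

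Ephb3, a receptor of epithelial compartments, stood at 0.413, 0.33, 21.1 and 1.34 CPM against 105, 123, 89 and 86.3 CPM. It fell by −4.11 ± 1.34 (edgeR adjusted p = 0.0303), and by −7.15 without obese replicate 3. Leaving out obese replicate 4 (−3.77, edgeR adjusted p = 0.0701) or lean replicate 2 (−4.00, 0.0548) ended the call, so that it depends on which tumours enter. Ephb6, a receptor whose kinase domain is inactive, stood at 0.206, 0.264, 7.44 and 0.36 CPM against 28.3, 41.3, 36.9 and 37.2 CPM and fell by −4.10 ± 1.23 (edgeR adjusted p = 0.0222; −6.97 without obese replicate 3). For both genes the other 3 obese tumours held at most 1.34 CPM, and obese replicate 3 held 21% (Ephb3) and 20.7% (Ephb6) of the lean mean.

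Ephb1 differed from these in its pattern. It stood at 0.165, 0.28, 0.387 and 0.24 CPM in obese tumours, obese replicate 3 included, and at 0.565, 48.4, 8.57 and 1.9 CPM in lean tumours, whose values spread widely around a peak in lean replicate 2. The change was −5.76 ± 1.41 (edgeR adjusted p = 0.0101), and −3.75 without lean replicate 2 (0.0115). It missed the threshold with limma-voom (−4.14, adjusted p = 0.0719). Ephb2, named here after its values were seen because it completes the family, fell by −2.94 ± 0.65 from low levels (0.32 ± 0.19 against 2.51 ± 1.68 CPM, SD, n = 4; edgeR adjusted p = 0.00665).

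The stretch upstream of the start of these genes is shown for Ephb1, Ephb3 and Ephb6, because all 3 receptors fell while the sequences before their starts differ. Each is 200 bases long, 5′ to 3′ on the gene's strand, ends before the first transcribed base and comes from RefSeq (GRCm38.p6). The coordinates are chr9:102354694-102354893 on the minus strand for Ephb1, chr16:21204555-21204754 on the plus strand for Ephb3 and chr6:41605282-41605481 on the plus strand for Ephb6. Capitals mark the GC box, GGGCGG on either strand, a sequence that Sp family factors can bind.
Ephb1: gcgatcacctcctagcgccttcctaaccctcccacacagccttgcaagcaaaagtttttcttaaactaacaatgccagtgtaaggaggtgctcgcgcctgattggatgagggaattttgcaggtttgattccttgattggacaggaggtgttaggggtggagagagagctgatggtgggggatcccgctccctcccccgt
Ephb3: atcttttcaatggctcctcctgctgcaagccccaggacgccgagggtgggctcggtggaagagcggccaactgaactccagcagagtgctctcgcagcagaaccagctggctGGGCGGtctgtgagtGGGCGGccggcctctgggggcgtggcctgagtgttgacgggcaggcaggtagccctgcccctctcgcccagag
Ephb6: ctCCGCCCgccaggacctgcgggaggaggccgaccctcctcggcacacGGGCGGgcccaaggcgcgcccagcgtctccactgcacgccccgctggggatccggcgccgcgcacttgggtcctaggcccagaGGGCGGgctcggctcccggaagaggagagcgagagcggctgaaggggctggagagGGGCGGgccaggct
The Ephb6 stretch holds 4 GC boxes and 22 CpG sites, that of Ephb3 2 and 11, and that of Ephb1 0 and 6. A match is a run of letters and not a bound site.

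Among the 9 EphA receptors, 5 passed the filter. Epha2 rose, Epha4 fell, and Epha1, Epha3 and Epha7 did not pass in the full set but fell without obese replicate 3. Epha2, the EphA receptor of most epithelial tumours and a receptor of ephrin-A1, stood at 145, 166, 123 and 124 CPM in obese and 72.9, 73.2, 92.6 and 93.2 CPM in lean tumours. The groups did not overlap, and the change was 0.75 ± 0.15 (edgeR adjusted p = 0.00429; ENSMUSG00000006445, chromosome 4, 141301240 to 141329384). Obese replicate 3 behaved like its group for this gene.

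Epha1, an epithelial receptor, stood at 0.289, 0.214, 14.5 and 0.432 CPM against 39.3, 78.9, 41.6 and 39.5 CPM. Every obese value was below every lean value, yet the change of −3.68 ± 1.41 did not pass (edgeR adjusted p = 0.052), while it was −7.31 without obese replicate 3 (edgeR adjusted p = 3.69e-05). Of its exon bases, 6.01% overlap Zyx on the other strand. Epha7 stood at 0.0413, 0, 7.6 and 0.672 CPM against 12.9, 72.7, 31.7 and 16.8 CPM, with a change of −4.00 ± 1.66 (edgeR adjusted p = 0.0681) or −7.09 without obese replicate 3 (0.00257). For both genes obese replicate 3 held the one obese value well above the others, at 29.2% and 22.7% of the lean mean.

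Epha4, a receptor that binds both A and B ephrins, stood at 0.248, 0.115, 1.97 and 0.216 CPM against 4.91, 20.1, 5.56 and 4.3 CPM and fell by −3.75 ± 1.05 (edgeR adjusted p = 0.0167). Epha3 was low everywhere, at 0.124, 0.033, 1.8 and 0.528 CPM against 2.33, 2.61, 2.75 and 1.53 CPM. Its groups overlapped through obese replicate 3, and the change of −1.87 ± 0.97 did not pass (edgeR adjusted p = 0.126; −3.31 and 0.00899 without that tumour).

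The other 4 EphA receptors were below the filter. Epha10, a receptor with an inactive kinase domain, had 11, 18, 11 and 18 counts in obese tumours and 0 in each lean tumour. This is at least 21.7-fold higher, against the limit that a count of 0 allows (3 counts over the lean group). Under 6 of the 17 alternatives it was tested, and it was called higher in each (edgeR adjusted p = 0.00129 to 0.00635, with 0.00129 without obese replicate 3). With 0 counts in every lean tumour, it could enter the test only through its obese counts. Epha8 had 0, 237, 15 and 41 counts in obese and 0, 0, 1 and 0 in lean tumours, so that most of its reads came from obese replicate 2. Epha5 had 1 count over all 8 libraries and Epha6 had 0.

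The makeup of the Eph receptor RNA therefore differed between the groups. Epha2 held 90.2%, 86.8%, 50.9% and 88.1% of the summed Eph receptor level per kb in obese tumours and 17.7%, 14.4%, 20.2% and 21.2% in lean tumours. Ephb4 held 8.83%, 10.5%, 29.3% and 8.83% against 41.7%, 24%, 39.5% and 40.9%. The ratio of Epha2 to Ephb4 per kb was 10.2, 8.3, 1.73 and 9.99 in obese and 0.426, 0.6, 0.513 and 0.517 in lean tumours, above 1 in 4 of 4 obese and below 1 in 4 of 4 lean tumours. The summed level of all Eph receptors was 34.5, 40.9, 51.7 and 30.1 against 87.9, 109, 97.9 and 94.2 CPM per kb.

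**Figure D2:**
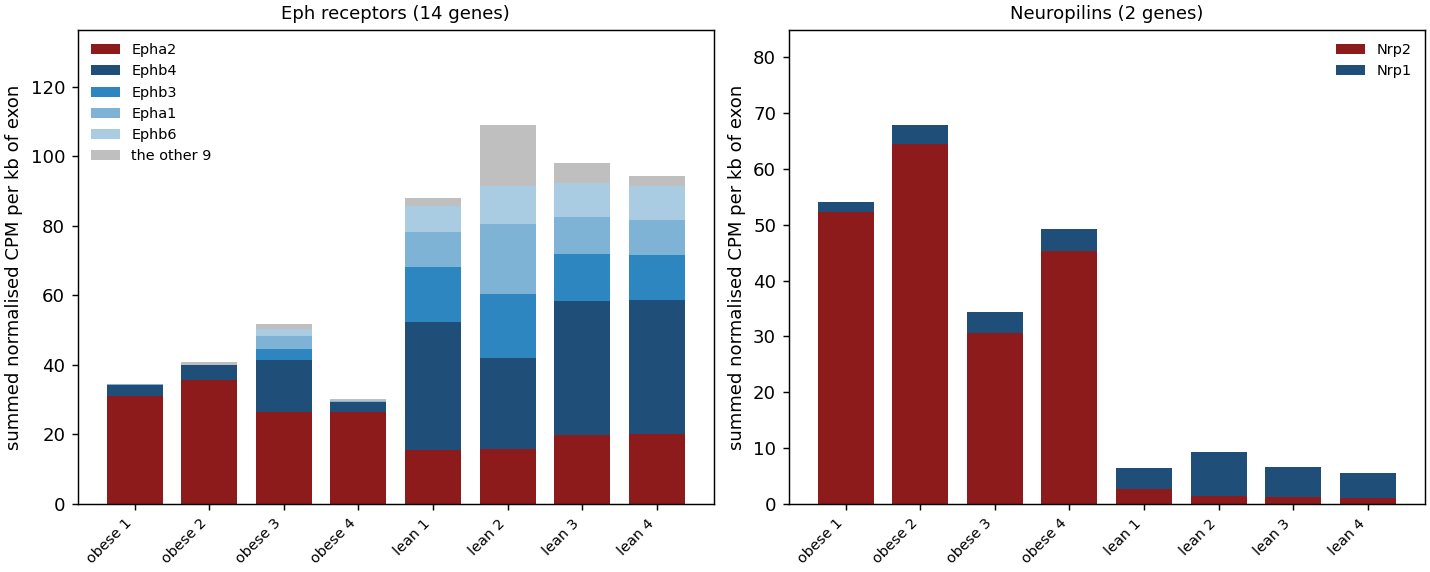
Summed level (y axis, normalised CPM per kb of exon) of the 14 Eph receptors (left) and the 2 neuropilins (right) in each of the 8 tumours, stacked by gene. Epha2 (red) makes up 50.9% to 90.2% of the obese Eph bars, and Nrp2 (red) 89.1% to 96.7% of the obese neuropilin bars.

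Ephrin-A ligands divided, with 2 rises, 2 falls and 1 gene that did not pass. Efna1, the ligand of EphA2 and the most abundant ephrin-A per kb, stood at 45.9, 67.2, 58.5 and 58.9 CPM in obese and 35.7, 30.7, 30.3 and 31.8 CPM in lean tumours. The groups did not overlap and the gene (ENSMUSG00000027954, chromosome 3, 89271733 to 89281142) rose by 0.84 ± 0.14 (edgeR adjusted p = 0.00211). Efna2 rose from a low level, with 2.64, 7.09, 2.38 and 6.36 CPM against 1.23, 1.44, 1.83 and 1.46 CPM (1.63 ± 0.44, edgeR adjusted p = 0.0139).

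Efna4 and Efna3 fell. Efna4 stood at 1.53, 1.24, 6.07 and 1.22 CPM against 17.6, 16.6, 18.9 and 18.5 CPM (−2.83 ± 0.58, edgeR adjusted p = 0.0048), a level that was close to constant in the lean group. Efna3 stood at 0.0826, 0.165, 0.425 and 0.24 CPM against 4.27, 3.22, 2.44 and 1.12 CPM (−3.55 ± 0.61, edgeR adjusted p = 0.00248). Efna5, a ligand that can also bind EphB2, stood at 0.165, 0.165, 13.9 and 0.72 CPM against 29.3, 28.1, 23.3 and 24.2 CPM. Obese replicate 3 reached 52.9% of the lean mean, and the change of −2.81 ± 1.36 did not pass (edgeR adjusted p = 0.106), whereas it was −6.19 without that tumour (0.000119).

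Efna1, Efna3 and Efna4 lie side by side on chromosome 3, with 32.8 kb between Efna1 and Efna3 and 10.4 kb between Efna3 and Efna4. The gene that rose therefore sits beside 2 that fell. The summed ephrin-A level was 27.3, 40.9, 40.5 and 36.2 CPM per kb in obese and 40.1, 36.1, 36 and 36.1 CPM per kb in lean tumours, and these ranges overlap. Efna1 held 87.3% ± 5.7 of it in obese and 47.3% ± 1.29 in lean tumours (SD, n = 4), and Efna4 4.22% ± 3.51 against 30.3% ± 2.6. In GENCODE M21, 14.1% of the exon bases of Efna3 and 10.5% of those of Efna4 overlap antisense transcripts on the other strand (Gm15998 and 4731419I09Rik). Whether the reads were counted by strand is not given in the sources used here, so reads of such a pair cannot be told apart.

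Of the 3 ephrin-B ligands, 2 fell and 0 rose. Efnb2, the ephrin of arterial endothelium and the ligand of EphB4, stood at 2.44, 2.29, 2.55 and 3.19 CPM against 6.58, 13.9, 8.82 and 4.94 CPM (−1.71 ± 0.36, edgeR adjusted p = 0.00551). Efnb3 stood at 0.95, 0.676, 1.04 and 0.936 CPM against 3.88, 2.18, 2.21 and 3.36 CPM (−1.69 ± 0.33, edgeR adjusted p = 0.00401). Obese replicate 3 lay within its group for both. Efnb1, the most abundant ephrin-B per kb, stood at 3.8, 12.2, 4.06 and 6.1 CPM against 10.6, 14.4, 16.4 and 9.91 CPM, with overlap through obese replicate 2. Its change of −0.97 ± 0.41 did not pass (edgeR adjusted p = 0.0707), and it passed under 7 of 17 alternatives, among them without obese replicate 2 (−1.45, 0.00951). Beside these values, 6 of 12 blood endothelium markers fell and 0 rose (all genes: 28.4% and 30.9%). Their summed level was 218 to 239 CPM in obese and 212 to 434 CPM in lean tumours, Cdh5 and Pecam1 did not pass, and the part of endothelial RNA in the ephrin-B values was not tested.

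**Figure D3:**
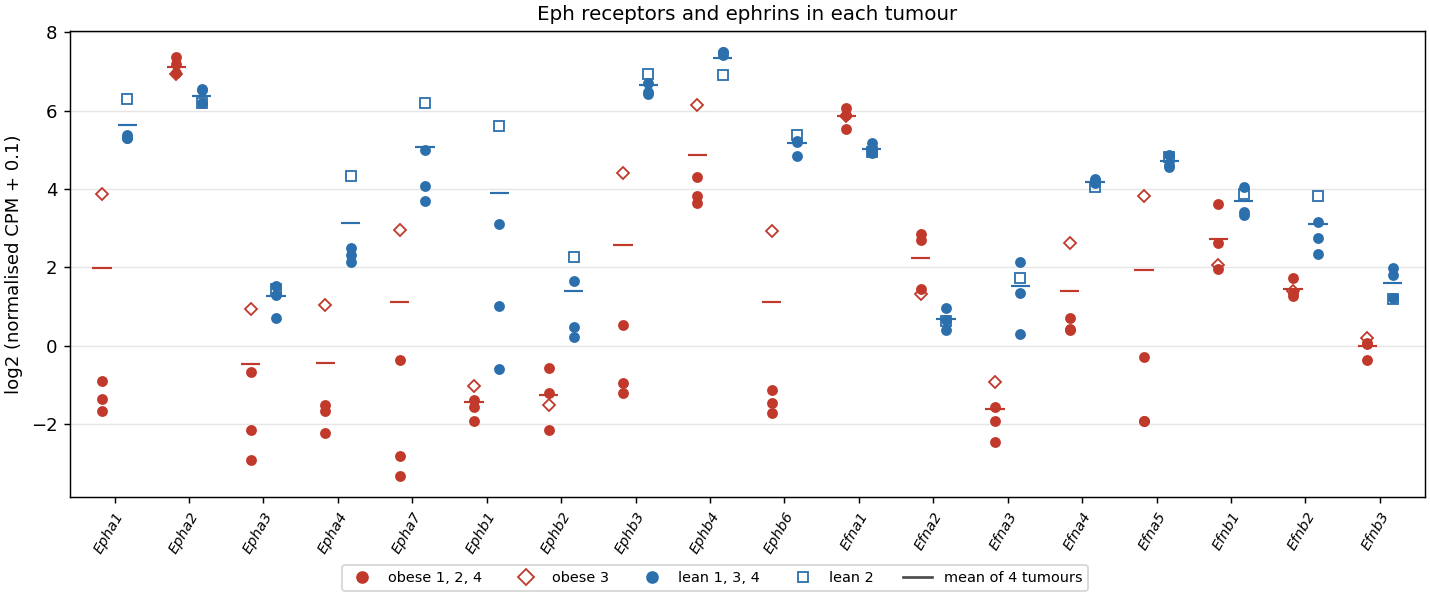
Level of each tested Eph receptor and ephrin in every tumour (y axis, log2 of normalised CPM plus 0.1; points, single tumours; open diamond, obese replicate 3; open square, lean replicate 2; bars, log2 of the mean CPM of 4 tumours plus 0.1). Obese replicate 3 lies between the other obese tumours and the lean group for Epha1, Epha7, Ephb3, Ephb4, Ephb6 and Efna5, while it lies with its group for Epha2, Ephb1, Efna1 and Efnb2.

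Among the 7 secreted semaphorins, 1 rose and 2 fell. Sema3a, the repellent of axons that acts through neuropilin-1 and A plexins, stood at 25.1, 65.1, 18.6 and 26.4 CPM in obese and 1.35, 0.843, 0.8 and 0.213 CPM in lean tumours. The lowest obese value was well above the highest lean value, and the gene (ENSMUSG00000028883, chromosome 5, 13125414 to 13602565) rose by 5.40 ± 0.68 (edgeR adjusted p = 0.000682), the largest rise among the tested guidance genes. It was 5.62 without obese replicate 3. Sema3a held 34.2% ± 11.7 of the summed secreted semaphorin level per kb in obese and 0.47% ± 0.412 in lean tumours.

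Sema3f, a ligand of neuropilin-2, went the other way. It stood at 6.56, 10.3, 9.63 and 6.86 CPM against 29.6, 34.2, 41.6 and 32.2 CPM and fell by −2.04 ± 0.21 (edgeR adjusted p = 0.000328). Obese replicate 3 lay within its group here, unlike for most of the falling Eph receptors. Sema3c, which binds both neuropilins, stood at 0.289, 0.346, 5.67 and 1.27 CPM against 10.4, 29.5, 13.8 and 9.78 CPM and fell by −3.06 ± 0.99 (edgeR adjusted p = 0.0287; −4.61 without obese replicate 3). Leaving out obese replicate 2, obese replicate 4 or lean replicate 2 ended the Sema3c call (edgeR adjusted p = 0.0533, 0.0739 and 0.064).

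Sema3b, the neighbour of Sema3f on chromosome 9 at a distance of 72.3 kb, stood at 4.58, 14.4, 8.95 and 13 CPM against 4.64, 73.1, 10.4 and 5.08 CPM. The groups overlapped and the change of −1.19 ± 0.93 did not pass (edgeR adjusted p = 0.29). It was 0.61 without lean replicate 2, so that its sign rests on that tumour. Sema3e, which binds plexin-D1 without a neuropilin, stood at 0, 0.0989, 1.28 and 0 CPM against 2.85, 0.556, 0.722 and 0.693 CPM. The change of −1.75 ± 1.35 did not pass (edgeR adjusted p = 0.284), and was −4.73 without obese replicate 3 (0.00795) and −0.92 without lean replicate 1 (0.59). Sema3d and Sema3g, given here after their values were seen, had changes of −1.96 and −1.21 that did not pass. Sema3a lies between Sema3d and Sema3e on chromosome 5, at 536 kb and 423 kb, and it rose while the neighbours did not pass.

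Among the 13 membrane semaphorins, 12 were tested, of which 4 rose and 4 fell. Sema6b, a class 6 semaphorin that binds A plexins, stood at 44.7, 24.9, 22.2 and 21.4 CPM in obese and 4.89, 3.45, 5.43 and 4.47 CPM in lean tumours. The groups did not overlap, and the gene rose by 2.63 ± 0.30 (edgeR adjusted p = 0.000452). The other 3 rises were below 2-fold and came from abundant genes. Sema4c, a ligand of plexin-B2, stood at 88.9, 99.8, 86.8 and 90.3 CPM against 64.1, 48.4, 59.4 and 65.1 CPM (0.63 ± 0.12, edgeR adjusted p = 0.00415), and 7.27% of its exon bases overlap D430040D24Rik on the other strand. Sema4b, another class 4 member, stood at 86.7, 91.1, 66.5 and 78.4 CPM against 45, 54.3, 54.2 and 48.7 CPM (0.67 ± 0.13, edgeR adjusted p = 0.00411). Sema7a, a lipid-anchored semaphorin that binds plexin-C1 and integrins, stood at 72.4, 31.9, 51.3 and 43.8 CPM against 28.3, 30.8, 24.8 and 21.3 CPM (0.92 ± 0.25, edgeR adjusted p = 0.0151). Obese values lay above lean values for all 3, although the margin for Sema7a was small and its call ended without lean replicate 4 (0.84, edgeR adjusted p = 0.0504).

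Sema4a, known from immune cells as well as epithelium, was the most abundant of the falling semaphorins per kb. It stood at 17.3, 9.28, 38.6 and 15.9 CPM against 76, 86.9, 108 and 116 CPM and fell by −2.26 ± 0.42 (edgeR adjusted p = 0.00329). Sema6a, a class 6 semaphorin that binds plexins A2 and A4, stood at 0.33, 0.412, 9.92 and 0.96 CPM against 23.8, 58.1, 33 and 26 CPM and fell by −3.59 ± 1.15 (edgeR adjusted p = 0.0278; −5.92 without obese replicate 3). Sema6a lost its call when obese replicate 2, obese replicate 4 or lean replicate 2 was left out (edgeR adjusted p = 0.0502, 0.0672 and 0.059). Sema6b and Sema6a, members of 1 class, thus moved in opposite directions in obese tumours.

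Sema6c stood at 0.702, 1.95, 1.22 and 0.936 CPM against 3.86, 1.38, 5.47 and 5.86 CPM, and Sema4g at 1.73, 3.92, 3.29 and 6.67 CPM against 5.5, 19.7, 10.8 and 9.78 CPM. Both fell (−1.78 ± 0.53 for Sema6c and −1.55 ± 0.51 for Sema4g, edgeR adjusted p = 0.0208 and 0.0296), but their groups overlapped. The Sema6c call ended when obese replicate 1 or 4 or lean replicate 3 or 4 was left out (edgeR adjusted p = 0.0501 to 0.0584). For Sema4g it ended without obese replicate 1, 2 or 3 or lean replicate 2 or 3 (0.0516 to 0.0718). With offsets for GC content and length neither passed (−1.10 for Sema6c, 0.066, and −0.97 for Sema4g, 0.0998). Sema5b was below the filter, at 0, 0.033, 0.0773 and 0.048 CPM in obese and 0.0982, 1.02, 0.527 and 0.284 CPM in lean tumours. It was tested under 6 of the 17 alternatives and fell in each (−3.85 to −3.13, edgeR adjusted p = 0.0074 to 0.0343). Its obese counts were 0, 2, 4 and 2. Outside the fit with no filter, Sema5b could thus enter the test only through its lean counts, and these calls add no separate support. Without obese replicate 3 the change was −3.85 (0.0113). Sema4d, Sema4f, Sema5a and Sema6d did not pass, with changes of −0.35 to −1.85. The summed membrane semaphorin level was 62.4 to 78.6 CPM per kb in obese and 59 to 77.3 CPM per kb in lean tumours, nearly the same range.

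Of the 9 plexins, 2 rose and 4 fell. Plxna1, the A plexin that pairs with neuropilins and with class 6 semaphorins, stood at 244, 270, 116 and 196 CPM in obese and 52.5, 81.7, 61 and 48.3 CPM in lean tumours (1.76 ± 0.29, edgeR adjusted p = 0.00193). Plxnd1, the receptor of semaphorin 3E in endothelium, stood at 267, 294, 145 and 270 CPM against 59.5, 88.5, 92.8 and 87.1 CPM (1.57 ± 0.25, edgeR adjusted p = 0.00165). Groups did not overlap for either gene, and obese replicate 3 was the lowest obese tumour for both. Of the exon bases of Plxna1, 10.7% overlap an antisense transcript, Gm26811.

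Plxnb1, the receptor of semaphorin 4D in epithelium, stood at 0.165, 0.494, 19.2 and 0.984 CPM against 64.4, 85.7, 76.8 and 99.7 CPM. It fell by −3.96 ± 1.37 (edgeR adjusted p = 0.0366; −7.14 without obese replicate 3). The call ended when obese replicate 2 or 4 or any 1 lean tumour was left out (edgeR adjusted p = 0.0537 to 0.0795) and with no filter (0.0526). Obese replicate 3 held 23.5% of the lean mean, close to its share for Ephb3 and Ephb6. Plxnb2, the receptor of semaphorin 4C and by far the most abundant plexin per kb, stood at 636, 655, 480 and 468 CPM against 472, 353, 518 and 564 CPM. The groups overlapped and it did not pass (0.23 ± 0.19, edgeR adjusted p = 0.3), except with offsets for GC content and length (0.80, 0.0118).

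Plxna3, a receptor component for semaphorin 3F, stood at 11.2, 20.1, 18.6 and 14.4 CPM against 38.2, 27.4, 42.1 and 53.7 CPM and fell by −1.33 ± 0.26 (edgeR adjusted p = 0.00404). Plxna2, a receptor of class 6 semaphorins, stood at 2.35, 5.87, 2.92 and 4.87 CPM against 4.42, 39.8, 12.9 and 7.64 CPM, and its groups overlapped. Its fall of −2.01 ± 0.69 (edgeR adjusted p = 0.0355) was −1.06 without lean replicate 2 (0.0902) and also ended when any 1 obese tumour or lean replicate 3 was left out (0.0506 to 0.0845), so it depends on single tumours. With limma-voom it was −1.60 (adjusted p = 0.0913), or −1.19 with quality weights (0.0601). Plxnc1, the receptor of semaphorin 7A, was named after its values were seen and fell by −0.82 ± 0.24 (11 ± 2.75 against 19.5 ± 3.85 CPM, edgeR adjusted p = 0.0196, or 0.0513 without obese replicate 2). Its groups overlapped slightly. Plxna4 and Plxnb3 were low in both groups and did not pass. Of the summed plexin level per kb, Plxnb1 held 0.523% ± 0.961 in obese and 8.8% ± 1.5 in lean tumours, Plxnd1 24.9% ± 4.27 against 11.6% ± 2.3 and Plxna1 16.8% ± 2.8 against 7.14% ± 2.57.

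The neuropilins changed places. Nrp2, the co-receptor of semaphorin 3F and vascular endothelial growth factor C and best known in lymphatic endothelium, stood at 620, 765, 362 and 536 CPM in obese and 30.3, 15.4, 13.2 and 11.6 CPM in lean tumours. Obese replicate 3, the lowest of its group, was still above every lean tumour, and the gene (ENSMUSG00000025969, chromosome 1, 62703285 to 62818695) rose by 5.02 ± 0.41 (edgeR adjusted p = 0.000196). Over all alternative settings its change ran from 4.80 to 5.42. Nrp1, the co-receptor of semaphorin 3A and vascular endothelial growth factor A, stood at 17.4, 32.9, 36.8 and 38.3 CPM against 37.9, 78.2, 53.6 and 43.5 CPM. Its groups overlapped slightly and the change of −0.76 ± 0.31 did not pass (edgeR adjusted p = 0.0597), although it passed under 8 of 17 alternatives, among them DESeq2's size factors (−0.82, 0.0424).

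The ratio of Nrp2 to Nrp1 per kb was 29.4, 19.2, 8.13 and 11.5 in obese and 0.66, 0.162, 0.204 and 0.221 in lean tumours. Nrp2 was thus the more abundant neuropilin in 4 of 4 obese tumours and Nrp1 in 4 of 4 lean tumours. By the mean of the obese tumours per kb, Nrp2 (48.2 CPM) was second among the 53 genes to Plxnb2 (72.5 CPM). Lymphatic endothelium markers did not rise with Nrp2. Flt4 and Pdpn fell, and Lyve1 did not pass (5.4 ± 2.05 against 6.05 ± 3.47 CPM). Prox1 stood at 0.0559 ± 0.0821 against 0.497 ± 0.399 CPM, and Ccl21a and Mmrn1 were at 0 in all 8 libraries. The list summed to 19 to 22.5 CPM in obese and 34.8 to 254 CPM in lean tumours, and Pdpn alone gave 228 CPM of the highest lean sum. The part of lymphatic endothelium in the Nrp2 values was not tested. The mesenchymal list was high in the same tumours, and its part in the Nrp2 and Sema3a values was not tested.

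The upstream stretches of Nrp2, Sema3a and Plxnb1 are shown because these genes had the largest rises and the largest plexin fall. They are again 200 bases long, 5′ to 3′ on the gene's strand, from RefSeq (GRCm38.p6), at chr1:62703085-62703284 for Nrp2, chr5:13396584-13396783 for Sema3a and chr9:109095189-109095388 for Plxnb1, all on the plus strand. The RefSeq start used for Sema3a lies 271 kb after the first GENCODE start of that gene, so that the stretch belongs to an internal start. Capitals mark the GC box on either strand.
Nrp2: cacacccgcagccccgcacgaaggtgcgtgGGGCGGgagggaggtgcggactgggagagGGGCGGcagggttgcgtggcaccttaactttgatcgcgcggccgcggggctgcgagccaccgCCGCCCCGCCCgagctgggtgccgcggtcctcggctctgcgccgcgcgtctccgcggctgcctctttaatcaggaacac
Sema3a: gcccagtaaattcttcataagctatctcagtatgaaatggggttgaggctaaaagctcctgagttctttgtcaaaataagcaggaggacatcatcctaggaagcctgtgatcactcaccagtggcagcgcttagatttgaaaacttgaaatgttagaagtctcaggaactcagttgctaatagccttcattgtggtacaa
Plxnb1: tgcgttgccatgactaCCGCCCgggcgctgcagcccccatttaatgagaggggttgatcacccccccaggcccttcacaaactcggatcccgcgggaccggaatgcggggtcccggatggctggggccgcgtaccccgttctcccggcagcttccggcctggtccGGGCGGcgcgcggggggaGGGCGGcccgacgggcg
The Nrp2 stretch holds 4 GC boxes, 27 CpG sites and 73.5% G and C, and that of Plxnb1 holds 3, 24 and 73.0%. The Sema3a stretch holds 0 GC boxes, 1 CpG site and 42.0% G and C. Nrp2, which rose, and Plxnb1, which fell, are thus alike in these letters. The Sema3a stretch differs from both, but it belongs to an internal start and cannot be set against them as the main promoter of its gene.

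RefSeq gave a promoter window (250 bases before to 50 after the start) for 47 of the 53 members and for 27025 genes in all. The GC box GGGCGG, on either strand, was in 76.6% of the member windows and in 35.9% of all windows. It was in 9 of 10 windows of genes that rose, 14 of 17 of genes that fell and 9 of 15 of genes that did not pass. Its presence thus did not divide rises from falls. Among the rises it was missing only from the Sema3a window, which belongs to the internal start. The E box CACCTG, a site of Snail and Zeb factors, was in 12.8% of member windows and 20% of all, the AP-1 site TGANTCA in 2.13% and 7.92%, and TATAAA in 2.13% and 14.2%, each on either strand. Member windows had a median of 64.7% G and C and all windows 52.7%. The windows of all genes include many that were not tested here, and a match is a description, not a site in use.

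**Figure D4:**
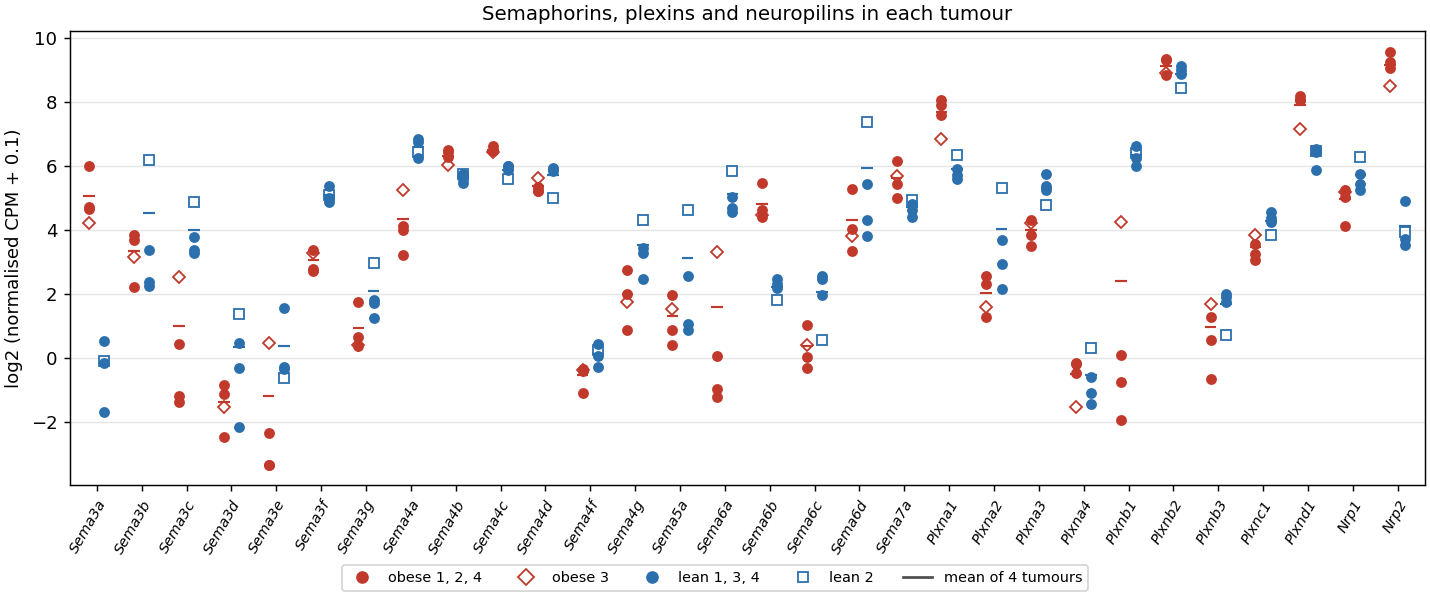
Level of each tested semaphorin, plexin and neuropilin in every tumour (y axis, log2 of normalised CPM plus 0.1; points, single tumours; open diamond, obese replicate 3; open square, lean replicate 2; bars, log2 of the mean CPM of 4 tumours plus 0.1). All obese points lie above all lean points for Sema3a, Sema6b, Plxna1, Plxnd1 and Nrp2, and lean replicate 2 is the highest lean tumour for Sema3b, Sema3c, Sema6a, Sema6d and Plxna2.

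Some known pairs of ligand and receptor are set side by side here, chosen after their values were seen. Efna1 and its receptor Epha2 both rose (0.84 and 0.75), and Efnb2 and its receptor Ephb4 both fell (−1.71 and −2.47). In class 6, Sema6a and Plxna2 fell (−3.59 and −2.01), while Plxna4, which also binds Sema6a, did not pass (0.06). Sema6b rose (2.63) and is not paired with a single receptor here, because the A plexins differed. Plxna1 rose, Plxna2 and Plxna3 fell and Plxna4 did not pass. Sema3a (5.40) and Plxna1 (1.76) rose while Nrp1 did not pass. Sema3f and Plxna3 fell (−2.04 and −1.33) while the co-receptor Nrp2 rose (5.02). Sema7a rose (0.92) and Plxnc1 fell (−0.82). Plxnb1 fell (−3.96), whereas its ligand Sema4d, at 41.3 ± 5.8 against 52.7 ± 13.8 CPM, did not pass. Plxnd1 rose (1.57), and Sema3e did not pass in the full set.

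Genes that act with these families were read from 6 lists. Of 29 tested plexin and semaphorin effectors, 11 rose and 6 fell (58.6% called; median 0.29). Crmp1, a collapsin response mediator that relays semaphorin 3A signals, stood at 206 ± 35.4 against 3.52 ± 4.02 CPM (5.88 ± 0.80, edgeR adjusted p = 0.00101). Small GTPase genes of the list differed among themselves. Rras2 stood at 75 ± 9.44 against 30.4 ± 1.9 CPM (1.30 ± 0.13, edgeR adjusted p = 0.000287), Rap1b stood at 521 ± 85.3 against 208 ± 10.7 CPM (1.33 ± 0.14, 0.000334), and Cdc42 rose by 0.86 ± 0.12 (0.00108). Rnd1 (2.09), Rap1a (0.83) and Rhoa (0.80) rose as well. Rras, Mras and Rac1 did not pass, and Rhod (−0.58), Rnd2 (−0.64) and Rnd3 (−0.89) fell, Rnd2 not without obese replicate 3. Summed neuron markers were 11.5 to 56.4 CPM in obese and 1.67 to 2.85 CPM in lean tumours. Tubb3 alone made up nearly all of the obese sums (56.3, 11.3, 21.9 and 14.4 CPM). Of the 2 markers that could be tested, Tubb3 rose (26 ± 20.7 against 0.951 ± 0.816 CPM) and Stmn2 fell (not called without obese replicate 3), while Snap25, Syt1 and Nefl were at most 0.0441 CPM in either group mean. Rbfox3 was below the filter and lower in obese tumours (0.0441 ± 0.0328 against 0.231 ± 0.237 CPM). The part of neurons in the Crmp1 values was not tested.

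Of 26 tested Eph partners and effectors, 4 rose and 11 fell (57.7% called; median −0.38). Ptpn13, a phosphatase that acts on ephrin-B, stood at 1.43 ± 0.97 against 13.7 ± 4.47 CPM (−3.25 ± 0.53, edgeR adjusted p = 0.00191). Tiam1, an exchange factor for Rac, stood at 11.3 ± 5.78 against 60.2 ± 18.8 CPM (−2.41 ± 0.41, 0.00227), and the adaptor Nck2 at 42.6 ± 18.4 against 127 ± 10.5 CPM (−1.57 ± 0.28, 0.00295). The kinase gene Abl2 rose by 1.10 ± 0.20 (0.00292). Both shares called are near the 59.2% of all genes.

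Of 17 co-receptors and alternative receptors of semaphorins, 3 rose and 4 fell (41.2% called, beside 59.2% of all genes, with a median of 0.07). L1cam, a cell adhesion molecule that complexes with neuropilin-1, stood at 147 ± 43.9 against 6.15 ± 1.93 CPM (4.58 ± 0.31, edgeR adjusted p = 0.000159). Met, the receptor of hepatocyte growth factor and a partner of B plexins, stood at 424 ± 103 against 48.3 ± 19.2 CPM (3.13 ± 0.34, 0.000397). Flt1 (−1.18 ± 0.19) and Flt4 (−1.69 ± 0.44), receptors for vascular endothelial growth factors, fell, and Kdr did not pass (28.9 ± 4.02 against 27.6 ± 15.8 CPM). Among 5 tested growth factors that bind neuropilins, Pgf stood at 24.4 ± 11.6 against 172 ± 82.3 CPM (−2.82 ± 0.43, edgeR adjusted p = 0.0016), Vegfc fell (−1.67 ± 0.60, not called without obese replicate 3), Vegfb rose (1.05 ± 0.22) and Vegfa did not pass (59.1 ± 10.6 against 50.3 ± 8.05 CPM). The list thus had 1 rise and 2 falls (60% called, beside 59.2% of all genes, with a median of −0.92).

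Of 14 sheddases and convertases that cleave these proteins, 4 rose and 3 fell (50% called, beside 59.2% of all genes, with a median of −0.05). Mmp14, a membrane protease that cleaves Eph receptors and semaphorins, stood at 535 ± 191 against 124 ± 16.8 CPM (2.11 ± 0.26, edgeR adjusted p = 0.000671), and Adam17 rose by 0.90 ± 0.16 (0.00271). The convertase genes Pcsk6 (−3.76 ± 0.59) and Pcsk5 (−2.07 ± 0.41) fell. In the Slit, Robo, netrin and Dcc family, the other large group of guidance genes, 6 of 17 tested genes rose and 7 fell (76.5% called, median −0.59). Over all tested genes 59.2% were called, 30.9% as rises and 28.4% as falls. The netrin receptor genes Unc5a (20 ± 9.16 against 1.34 ± 0.267 CPM, 3.90 ± 0.40, edgeR adjusted p = 0.000332) and Unc5b (165 ± 46.5 against 42.5 ± 11.1 CPM, 1.96 ± 0.27, 0.001) rose. Draxin, a secreted cue that binds Dcc, rose from a low level (2.86 ± 0.51), and the Slit receptor gene Robo1 fell (−2.85 ± 0.54).

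Markers of other cell states and cell types moved with several of these results. Obese replicate 3 was the highest obese tumour for 13 of the 20 genes that fell and the lowest for 8 of the 11 that rose. The share over all tested genes was not counted. On the first principal component of the 1000 most variable genes that tumour also lay between the other obese and the lean tumours (12.9), so these counts are not read as particular to guidance genes. Its level as a share of the lean mean ran from 2.6% (Ephb1) to 74.6% (Plxnc1) over the 20 genes that fell, beside 38.8% for the summed luminal markers. Ephb2 (10%), Efna3 (15.4%) and Plxna2 (18%) were also at the low end, and Sema4a (39.8%), Ephb4 (43.4%) and Plxna3 (46.1%) at the high end. Lean replicate 2, with the highest basal marker sum, was the highest lean tumour for 22 of the 48 tested members and the lowest for 12. Here too the share over all genes was not counted. Summed Schwann cell markers were 8.46 to 26.9 CPM in obese and 72.4 to 241 CPM in lean tumours, T cell markers 20 to 66.7 against 84.3 to 216 CPM and B cell markers 4.25 to 9.81 against 24.7 to 59.3 CPM. Macrophage markers (1377 to 1749 against 855 to 2258 CPM), fibroblast markers (1493 to 5233 against 1568 to 2196 CPM) and pericyte markers (109 to 190 against 80.7 to 243 CPM) overlapped between the groups in their sums, but members of each list were called. Of 10 macrophage markers 4 rose (Adgre1, Fcgr1, Cd68 and Mrc1, the last at 122 ± 69.5 against 16.1 ± 5.8 CPM) and 1 fell, of 10 fibroblast markers 3 rose and 5 fell, and of 6 pericyte markers 1 rose and 4 fell. Over all tested genes 30.9% rose and 28.4% fell. The sums of adipocyte (24.9 to 446 against 134 to 524 CPM), neutrophil (20.6 to 499 against 21.9 to 62.8 CPM) and skeletal muscle markers (5.16 to 191 against 20.4 to 1244 CPM) overlapped too. The part of these cell types in the guidance gene values was not tested.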

How the data were processed

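The authors deposited counts, that is, whole numbers of reads per Ensembl mouse gene with 1 column per tumour. STAR 2.5.2b, HTSeq, cutadapt 1.12, bcl2fastq 2.18.0.12, CASAVA 1.8 and mm10 stand in the submitters' processing notes, and a TruSeq stranded kit in the labels' protocols. The annotation and the strand setting of the counting are not given in the sources used here. Of 50143 IDs, 30886 were 0 in every library and 49412 had a GENCODE M21 symbol, which also gave coordinates (GRCm38, counted from 1) and exon lengths.

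Groups came from the labels' condition, and replicate numbers follow the order of the samples and pair nothing. Genes were filtered with edgeR's filterByExpr (minimum count 10, minimum total 15), which left 14887. They were scaled by TMM, and the test was edgeR's two-sided quasi-likelihood F test with robust dispersions and no covariate, adjusted by Benjamini-Hochberg over all 14887 genes, threshold 0.05. The SE is the log2 change over the square root of F. A count of 0 allows up to 3 counts, or 0.0494 to 0.124 CPM by library, for counting error only. P-values measure the spread between these tumours, which may in part be technical. No 2 libraries agreed within sampling noise (smallest chi-square per degree of freedom 65.6).

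Members, pathway lists and marker lists were chosen with earlier results of these data known. Values in every tumour are given for up to 3 rises and 3 falls per family, for the 2 members of each family with the highest level per kb, and for members whose call changed without obese replicate 3. Other members named were chosen after their values were seen. Lists name up to 4 members with the smallest p. Other list members, markers and pairs of ligand and receptor were picked beyond that.

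The 17 alternatives were DESeq2's size factors, upper quartile factors, library size only, no filter, 1 CPM in 4 tumours, limma-voom, limma-voom weighted by sample quality, the DESeq2 Wald test, loess offsets for GC content and exon length (14759 genes, 99.1%) and leaving out each tumour. On simulated counts for obese against lean (14740 genes), edgeR found 5% of 100 genes with a 2-fold change and 60.2% of 98 with a 4-fold change, gave 0 the wrong sign and called 3 unchanged genes. The tools were edgeR 4.0.16, DESeq2 1.42.0 and limma 3.58.1 in R 4.3.3.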

Additional observations from a re-analysis of the deposited data

Results flagged for a closer look

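For 40 of the guidance genes, the highest and the lowest tumour of each group were set against the other 3. In 19 of 80 groups of 4 tumours, 1 tumour lay so far off that its gap to the nearest other, as a share of the group's range, passed Dixon's limit, which chance passes in about 1 of 20 groups. Of these 19 cases, 11 were obese replicate 3 and 5 were lean replicate 2. The 40 genes include every member whose call changed without obese replicate 3. By that rule alone Epha3, Epha7, Epha10, Efna5, Sema3e, Sema4g and Sema5b entered, of which Epha7, Efna5 and Sema3e are among the 11 cases of that tumour. The count for that tumour is thus in part set by the choice of genes, and the rate of 1 in 20 cannot be set against it.

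Obese replicate 3 was high within its group for the Eph receptors Epha1 (14.5 CPM), Epha4 (1.97 CPM), Epha7 (7.6 CPM), Ephb3 (21.1 CPM), Ephb4 (70.4 CPM) and Ephb6 (7.44 CPM). It was also high for the ephrins Efna4 (6.07 CPM) and Efna5 (13.9 CPM), for Sema3e (1.28 CPM) and Sema6a (9.92 CPM), and for Plxnb1 (19.2 CPM). For each of these 11 genes except Sema3e the value lay between the other obese tumours and the lowest lean tumour.

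Lean replicate 2 was high for Epha1 (78.9 CPM), Epha4 (20.1 CPM), Ephb1 (48.4 CPM) and Sema3b (73.1 CPM) and low for Ephb4 (121 CPM, the others 170 to 179 CPM). Lean replicate 1 was high for Sema3e (2.85 CPM). Obese replicate 2 was high for Sema3a (65.1 CPM, the others 18.6 to 26.4 CPM), and obese replicate 1 for Sema6b (44.7 CPM, the others 21.4 to 24.9 CPM). In the last 2 genes every obese tumour was still above every lean tumour.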

How the results depend on the processing

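Rises numbered 11 to 13 and falls 15 to 29 under the 17 alternatives, and the median change ran from −1.85 to −1.01. Leaving out 1 tumour at a time gave 11 to 13 rises, 15 to 24 falls and medians of −1.69 to −1.01. The median moved by over 1.5 times without lean replicate 2 (−1.01), with offsets for GC content and length (−1.09) and with quality weights in limma-voom (−1.06). Over all genes, 4598 rose and 4221 fell. Upper quartile factors gave 3612 and 5145, library size only 3690 and 5026, and the offsets 5971 and 3140, with a median of all genes of −0.25, −0.22 and 0.32.

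For 38 genes, 565 of 642 alternative values kept direction and side of the threshold, 36 lost the call, 38 gained one and 3 changed sign. These 3 were Plxnb2 with quality weights (−0.01) and Sema3b with quality weights (0.48) and without lean replicate 2 (0.61; −1.55 to 0.61 over the 8 left-out tumours), and the cause was not tested. Calls held under every alternative for 10 of the 11 rises, all but Sema7a, and for 11 of the 20 falls. The 9 others are Ephb1, Ephb3, Sema3c, Sema4g, Sema6a, Sema6c, Plxna2, Plxnb1 and Plxnc1. No paired analysis was possible because the labels give no replicate number that the groups share. The simulated counts held only 100 genes with a 2-fold and 98 with a 4-fold change, whereas 59.2% of all tested genes were called here. The adjustment for many tests was therefore stricter in the simulation, and its recovery does not give the recovery of this comparison. With 4 tumours a group, a guidance gene that did not pass may still differ. Genes near 0 CPM in 3 obese tumours have log2 changes that depend on few counts.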
